A study of Danio rerio with 6 samples.

Results

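Heat shock proteins and chaperones were represented by 62 genes of the 8793 measured, through 70 of 15502 probe sets tested on the array. They were chosen by gene symbol: every probe set with exactly 1 symbol that begins with hsp, dnaj, ahsa1 or serpinh1, the subunit genes cct2 to cct8 and tcp1, and hsf1, hsf2 and stip1, without the matrix proteoglycan gene hspg2. The rule uses no measured value. The genes fall into 8 classes, of which J-domain proteins (28 genes), HSP70 and HSP110 (11 genes) and the subunits of the cytosolic chaperonin CCT (8 genes) are the largest. The other classes are HSP90 (4 genes), co-chaperones and collagen chaperones (4 genes), small heat shock proteins (3 genes), the mitochondrial chaperonin (2 genes) and heat shock factors (2 genes). No probe set here carried the symbol stip1 or serpinh1a alone.

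Gene expression was measured in 6 tumours, with 1 Affymetrix array for each. Small round blue cell tumours, abbreviated SRBCT (3 arrays), came from zebrafish of the genotype Tg(HSP:EWS-FLI1); p53M214K/M214K, and malignant peripheral nerve sheath tumours, abbreviated MPNST (3 arrays), from zebrafish of the genotype p53M214K/M214K without the transgene, so all fish carried the M214K change of p53 on both alleles. The transgene was a transposon injected at the start of development, in which the promoter of an HSP70 gene drives the human fusion oncogene EWS-FLI1, and the insertions were somatic. The labels name standard rearing and no heat treatment, and give no age or sex of the fish, nor whether a tumour held cells without the transgene. The titles call the replicates biological.

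Chaperones bind unfolded proteins and help them reach or keep their fold. HSP70 works in cycles of ATP, in which J-domain proteins bring the client and start ATP hydrolysis, and nucleotide exchange factors, including the HSP110 proteins, release it. HSP90 acts later on partly folded kinases, receptors and transcription factors, and the ring-shaped chaperonins enclose their clients. When unfolded proteins accumulate, heat shock factor 1 binds heat shock elements in the promoters of hsp70, hsp90, hspb1, dnajb1 and related genes and raises their transcription. Because an HSP70 promoter drives the transgene, the fish's own heat shock genes are described here in the tumours that carry it and in those that do not. The fusion itself is human and is not among the zebrafish genes measured.

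Marker genes of other tissues differed between the arrays. Values here are log2 expression levels. The neural crest gene sox10 was at 10.34 to 11.01 in SRBCT and 10.45 to 10.75 in MPNST. nkx2.2a, whose human ortholog is an EWS-FLI1 target, had levels of 10.76 on SRBCT 1, 9.58 on SRBCT 2 and 4.18 on SRBCT 3, against 3.48 to 3.86 in MPNST, so SRBCT 3 was far below the other SRBCT arrays. SRBCT 3 also stood apart over all probe sets: its correlation was 0.892 with SRBCT 1 and 0.864 with SRBCT 2, against 0.875, 0.910 and 0.916 with MPNST 1, 2 and 3, and its neuron markers averaged 4.94, against 6.36 and 6.73 on SRBCT 1 and 2 and 4.40 to 4.85 in MPNST. All 23 measured oocyte and egg coat markers had a mean difference below 0 (SRBCT minus MPNST), 9 of them called, and their mean log2 level was 4.36 to 5.11 on the SRBCT arrays and 7.49 to 9.38 on the MPNST arrays. The 17 intestine and pancreas markers averaged 8.15 on SRBCT 3, against 4.33 to 5.87 on the other SRBCT arrays and 4.32 to 5.35 on the MPNST arrays. Liver markers (20 genes) averaged 4.05 to 4.90 in SRBCT, and in MPNST 9.03 on MPNST 1 against 4.42 and 4.49 on the others. The mean of the hybridization spike-in controls was higher on SRBCT 1 and SRBCT 3 (10.28 and 9.61) than on SRBCT 2 (8.34) and the MPNST arrays (8.25 to 8.79). The 3' minus 5' log2 differences of the control probe sets for acta1 and GAPDH, taken as signs of RNA quality, separated the tumour types in opposite directions. The gene acta1 encodes a skeletal muscle actin, and muscle markers were dim in these tumours, so its value may be a poor sign of quality. Both differences separated the tumour types, and they disagreed in direction, so RNA quality and tumour type cannot be told apart. That of acta1 was 1.28, 1.14 and -0.21 in SRBCT and -1.0, -0.66 and -0.89 in MPNST. That of GAPDH was 0.41 to 0.84 in SRBCT and 1.04 to 1.1 in MPNST. Apart from fits with the spike-in mean in the model, the part of these signals in the chaperone values was not tested. In bulk tumour RNA, fewer cells of a type and less RNA per cell cannot be told apart.

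For most chaperone genes no difference beyond the spread of the arrays was detected between the tumours. The single probe set that passed the threshold, an adjusted p under 0.05 over the whole array, was that of ahsa1a, and it was higher in SRBCT. That is 1 of 70 chaperone probe sets (1.43%), while 0.0903% of all probe sets were called higher and 0.903% in either direction. None was called lower, where 0.813% of all probe sets were. At an unadjusted p under 0.05 in limma's test 4 chaperone probe sets were higher and 4 lower in SRBCT (5.71% each), against 7.58% and 7.59% of all probe sets. Without moderation of the variances, 0 of all 15502 probe sets were called. The 3 SRBCT arrays lay above the 3 MPNST arrays for 7 chaperone probe sets (10%, against 13.2% of all) and below them for 3 (4.29%, against 9.34%). These last shares are close to or under those of the whole array. On the log2 scale, SRBCT minus MPNST, the median over the 62 genes was -0.14, with 26 genes above 0 and 36 below, and over all 8793 genes it was 0.07.

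**Figure D1:**
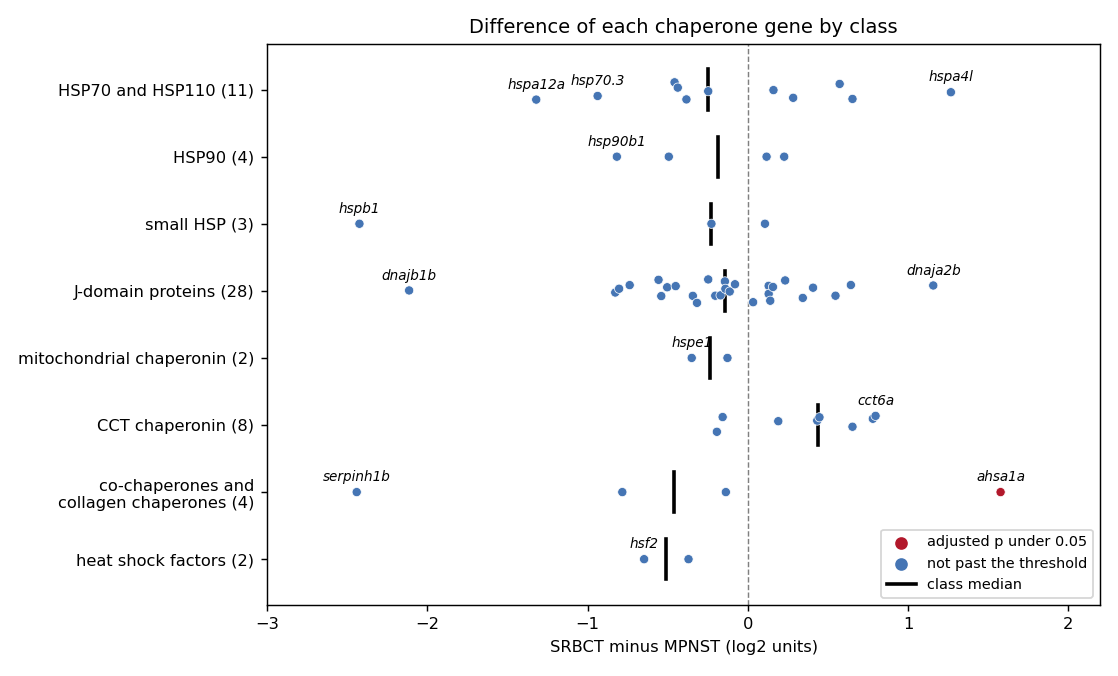
Difference of each of the 62 chaperone genes, SRBCT minus MPNST in log2 units (horizontal axis), by class (vertical axis, with the number of genes); points are genes, the red point passed the adjusted threshold and black bars are class medians. ahsa1a at 1.58 lies to the right, serpinh1b (-2.44), hspb1 (-2.42) and dnajb1b (-2.11) lie to the left, and the CCT subunits have the only class median above 0 (0.44), although those of HSP70 and HSP110, HSP90 and small heat shock proteins reach 0.03, 0.058 and 0.14 when 1 array is left out.

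ahsa1a, which encodes an activator of the ATPase of HSP90, stood apart with tight groups. Its log2 level was 5.17, 5.49 and 5.33 on SRBCT 1, 2 and 3, against 4.0, 3.44 and 3.82 on MPNST 1, 2 and 3. The lowest SRBCT array was more than 1 log2 unit above the highest MPNST array. The difference was 1.58 (SE 0.22, 95% interval 1.04 to 2.11, 2.98-fold higher in SRBCT, limma adjusted p 0.0422). All 6 values lie under the median of the array values, 5.52, where the summary method draws differences together. The direction held without each array in turn, at 1.42 to 1.70, but the adjusted p then passed only without SRBCT 3 (0.0251) and was otherwise up to 0.162. It also missed the threshold after a second quantile normalization (adjusted p 0.0565), after cyclic loess (0.0781), without the probe sets whose suffix marks possible binding to several transcripts (0.0533), without moderation of the variances (0.176) and with the spike-in mean of each array in the model (0.154). Without SRBCT 3, 3 chaperone probe sets were called higher (4.29%), against 3.67% of all, and none lower, against 3.68%.

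Its paralog ahsa1b did not share the separation. ahsa1b was at 6.48, 7.64 and 5.44 in SRBCT and at 6.10, 6.51 and 7.36 in MPNST, so the groups overlapped (difference -0.14, 95% interval -1.62 to 1.35, adjusted p 0.927). The sign of this difference turned without SRBCT 3 (0.40) and without MPNST 3 (0.22).

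Among the HSP70 and HSP110 genes none passed, 5 of 11 were above 0 and the class median was -0.25. That median was 0.03 without MPNST 3, 0.003 without SRBCT 3 and 0.19 with the spike-in mean in the model. hsp70.3 is one of the heat-inducible HSP70 genes, which have closely similar sequences, and its probe set is of a type that may also bind related transcripts. It was at 7.15, 8.5 and 8.20 on the SRBCT arrays, against 7.46, 8.38 and 10.82 on the MPNST arrays. MPNST 3 was far above the other 5 arrays, which otherwise overlapped. The difference was -0.94 (SE 0.88, adjusted p 0.626), and without MPNST 3 it was 0.03. A probe set annotated to several HSP70 genes at once, not a member by the rule, gave 6.75, 7.75 and 7.89 in SRBCT and 6.76, 8.07 and 10.27 in MPNST, again with MPNST 3 apart.

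The constitutive HSP70 gene hspa8, the main cytosolic form in unstressed cells, had overlapping groups. It was at 12.48, 12.90 and 13.16 in SRBCT and 12.39, 12.83 and 12.84 in MPNST (difference 0.16, 95% interval -0.46 to 0.78, adjusted p 0.774). Its relative hspa8b ranged from 5.81 to 8.0 within SRBCT and from 4.64 to 7.22 within MPNST, more than the group difference of 0.65, which was -0.068 to 1.31 without an array. hspa1b, another HSP70 family gene, differed by -0.25 at a dim level (4.27 ± 0.14 in SRBCT and 4.52 ± 0.35 in MPNST, SD, n = 3 each).

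HSP110 proteins are relatives of HSP70 that speed its nucleotide exchange, and the HSP110 gene hspa4l had the highest difference of this class. hspa4l was at 4.51, 5.43 and 3.25 on SRBCT 1, 2 and 3, against 2.97, 3.09 and 3.33 on the MPNST arrays. SRBCT 1 and 2 were above every MPNST array and SRBCT 3 was within their range. The difference was 1.27 (SE 0.54, adjusted p 0.339) and without SRBCT 3 it was 1.84, which passed (limma adjusted p 0.0329). That was 1 of the 6 fits without an array, and the adjusted p was otherwise up to 0.589. Without SRBCT 3, 3.67% of all probe sets were called higher. hspa4b (0.57, adjusted p 0.563) and hspa4a (0.28, adjusted p 0.812) had the same order of SRBCT arrays, with SRBCT 2 highest and SRBCT 3 lowest. The distant family member hspa12a had the lowest difference of the class, at 5.18, 5.51 and 6.54 in SRBCT and 8.25, 6.70 and 6.24 in MPNST (-1.32, adjusted p 0.371), and its groups overlapped. hspa14, which encodes a ribosome-associated form in humans, differed by -0.46 (adjusted p 0.585).

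The HSP90 genes had no called member, and 2 of 4 were above 0. hsp90ab1, the constitutive cytosolic form, was at 12.45, 12.30 and 12.30 in SRBCT and at 12.06, 12.34 and 11.97 in MPNST (difference 0.23, 95% interval -0.23 to 0.68, adjusted p 0.577). The heat-inducible hsp90aa1.2 was at 6.65, 8.74 and 7.67 in SRBCT and at 6.85, 8.64 and 9.05 in MPNST (difference -0.49, adjusted p 0.76). Replicate 1 of each tumour type was lowest for this gene and the groups overlapped widely. Its sign turned without SRBCT 1 (0.03). hsp90aa1.1, its neighbour on the chromosome, which serves myosin folding in zebrafish muscle, stayed between 4.45 and 5.51 on all 6 arrays (difference 0.12, adjusted p 0.863). Skeletal muscle markers were themselves dim, with a mean log2 level over 20 genes of 4.27 to 4.71 in SRBCT and 4.01 to 4.15 in MPNST.

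Of the HSP90 genes and the HSP90 activators measured, ahsa1a alone passed the threshold. A list of 37 genes outside the rule, most of them cofactors of HSP90 and HSP70, had 28 measured genes. None was called, 16 were above 0, 12 were below and the median was 0.04. The list also holds trap1, hyou1 and hsf5, relatives of members that the symbol rule does not cover. The smallest p-values belonged to bag4 (-1.01, adjusted p 0.256), a nucleotide exchange factor of HSP70, and hsbp1a (1.52, adjusted p 0.298), whose human ortholog binds heat shock factor 1. hsbp1a was at 9.19, 8.42 and 7.20 in SRBCT and at 6.86, 7.28 and 6.11 in MPNST, and SRBCT 3 lay below MPNST 2.

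Small heat shock proteins hold unfolded clients without using ATP, and 3 of their genes came under the symbol rule. The measured genes cryaba (0.74) and cryaa (0.32) also encode proteins of this family, but their symbols lie outside the rule. hspb1, the ortholog of human HSP27, was at 5.43, 6.36 and 7.81 on SRBCT 1, 2 and 3, against 7.95, 8.28 and 10.64 on MPNST 1, 2 and 3. Every SRBCT array was below every MPNST array, although SRBCT 3 came within 0.14 of MPNST 1. The difference was -2.42 (SE 0.89, 5.36-fold lower in SRBCT) and did not pass (adjusted p 0.297). It was -1.58 without MPNST 3 and -3.06 without SRBCT 3. hspb8, which works with the co-chaperone BAG3 in mammals, stood at 5.58 on MPNST 3, against 4.22, 4.25 and 4.65 in SRBCT and 4.14 and 4.08 on the other MPNST arrays. Its difference was -0.23 (adjusted p 0.816), and 0.26 without MPNST 3. hspb6 was dim on all 6 arrays, at 3.0 to 3.47.

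J-domain proteins were spread to both sides, with 11 of 28 genes above 0, 17 below, a median of -0.14 and none past the threshold. dnajb1b, a form of the classical HSP40 that is induced with HSP70 on heat shock, had the smallest p among the lower genes. It was at 6.39, 7.35 and 7.13 in SRBCT, against 8.81, 8.52 and 9.88 in MPNST. The groups lay more than 1 log2 unit apart, and MPNST 3 was again the highest array. The difference was -2.11 (SE 0.44, 95% interval -3.17 to -1.06, 4.33-fold lower in SRBCT, limma adjusted p 0.118). It ranged from -2.39 to -1.71 in the 6 fits without an array, and none of them passed. Its paralog dnajb1a was at 4.94, 6.28 and 5.26 in SRBCT and 5.87, 6.22 and 5.74 in MPNST, with overlap (-0.45, adjusted p 0.584).

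dnaja2b was the leading J-domain gene above 0. This class A protein, a general partner of constitutive HSP70, was at 9.62, 10.17 and 9.28 in SRBCT and at 8.47, 8.39 and 8.74 in MPNST. All SRBCT arrays were above all MPNST arrays. Its second probe set separated the groups too (0.81, adjusted p 0.365). That separation was narrow, at 7.48 or more in SRBCT against 7.4 or less in MPNST. The difference of the brighter probe set was 1.16 (SE 0.28, 2.23-fold, adjusted p 0.159), and without SRBCT 3 it was 1.36 and passed (limma adjusted p 0.0394). That was 1 of the 6 fits without an array, and the adjusted p was otherwise up to 0.427. The suffix of this brighter probe set marks possible binding to several transcripts. Without SRBCT 3 the second probe set, which has no such suffix, did not pass (0.98, limma adjusted p 0.242). The paralog dnaja2a had a difference of the opposite sign, at 9.42, 9.66 and 9.25 in SRBCT and 10, 10.18 and 9.66 in MPNST (-0.50, adjusted p 0.353).

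Differences between paralogs were compared within arrays for the 8 pairs whose symbols end in a and b. On each array the log2 value of the b gene was taken from that of the a gene, and the result was compared as SRBCT minus MPNST. It was -1.66 for dnaja2a and dnaja2b and 1.66 for dnajb1a and dnajb1b, each with the groups separated (exact two-sided permutation p 0.1, adjusted 0.4 over 8 pairs). A p of 0.1 is the smallest that 3 arrays against 3 can give. For ahsa1a and ahsa1b it was 1.71 (exact permutation p 0.2, adjusted 0.533). The other 5 pairs had exact permutation p-values of 0.5 to 1.

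**Figure D2:**
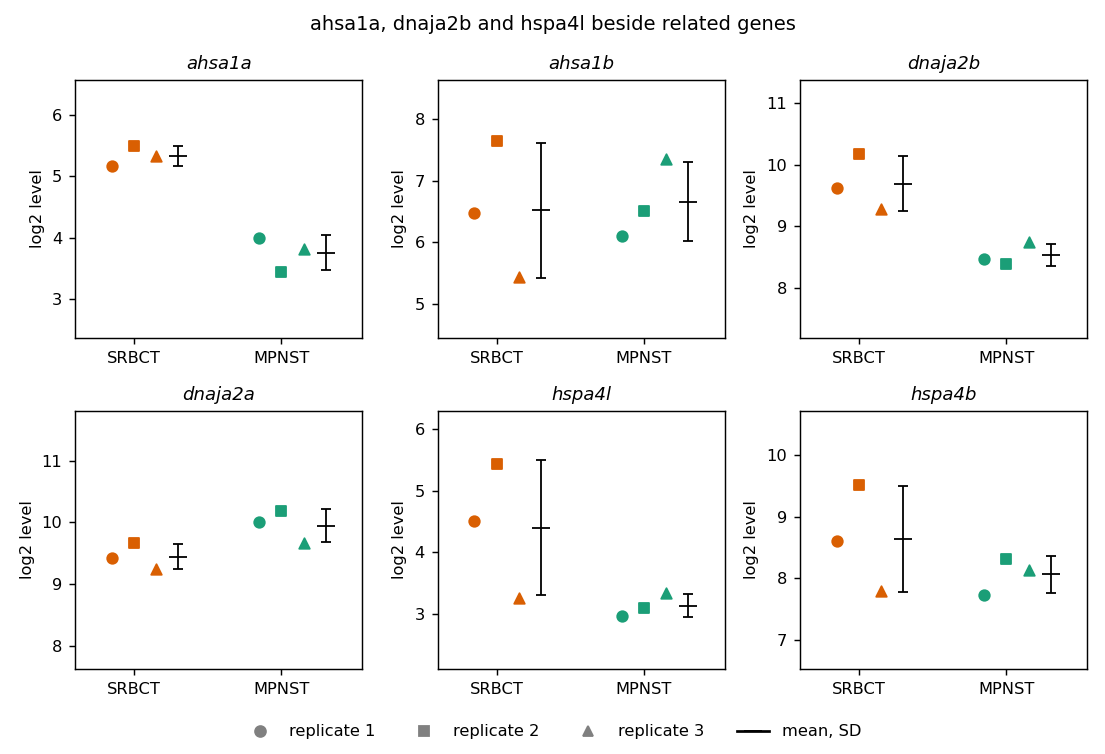
Log2 level (vertical axis) of ahsa1a, dnaja2b and hspa4l and of a related gene of each, in SRBCT (left, orange) and MPNST (right, green); symbols are replicates 1 to 3 and the bars are the mean and SD of 3 arrays. ahsa1a and dnaja2b separate the tumour types, hspa4l does so except for SRBCT 3 (3.25), and ahsa1b overlaps.

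Some other J-domain genes, most of them named after their values were seen, show how the class varied. dnajc5gb, of the cysteine string protein family, was at 5.21, 4.91 and 5.30 in SRBCT, below 5.71, 5.86 and 5.52 in MPNST (-0.56, adjusted p 0.293). Its relative dnajc5ga differed by -0.74 (adjusted p 0.421). dnaja3a, a mitochondrial J-domain protein gene, was at 8.36 on SRBCT 2 against 6.02 and 5.55 on SRBCT 1 and 3, while the MPNST arrays lay at 6.44 to 6.97. A like order was found for dnajc9, whose human ortholog is a histone chaperone, with 7.87, 8.75 and 6.31 in SRBCT and 7.14, 7.36 and 6.79 in MPNST. dnajc7, dnajc11a, dnajc24, dnajc30b and dnaja3b differed by -0.17 to 0.13, with adjusted p of 0.65 or more.

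The subunits of CCT, the ring of 8 different proteins that folds actin and tubulin, had the highest class median, 0.44, with 6 of 8 genes above 0 and none called. cct6a was at 11.32, 11.75 and 11.61 in SRBCT, against 10.39, 10.82 and 11.08 in MPNST (difference 0.80, SE 0.25, adjusted p 0.25). cct3 was at 10.92, 10.47 and 11.19 in SRBCT and at 9.88, 10.32 and 10.42 in MPNST (0.65, adjusted p 0.329). For these genes and cct4 (0.78, adjusted p 0.362) every SRBCT array was above every MPNST array, by as little as 0.05 for cct3. Over the whole array 13.2% of probe sets were separated in this direction.

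The other subunits overlapped. cct5 differed by 0.45 (adjusted p 0.596), tcp1, the alpha subunit, by 0.43 (adjusted p 0.497) and cct8 by 0.19 (adjusted p 0.733), whereas cct7 (-0.16) and cct2 (-0.19) were below 0. MPNST 1 was the lowest array for 6 of the 8 subunits, at 10.12 for cct5 against 11.31 and 11.44 on MPNST 2 and 3. Without MPNST 1 the class median was 0.13. MPNST 1 is also the array with the liver markers and the highest oocyte markers, whose part in this was not tested. Prefoldin, which hands actin and tubulin to CCT, was listed with phosducin-like cofactors of CCT. The list of 8 had 6 measured genes, 1 of them the phosducin-like pdcl3, with 5 above 0, a median of 0.24 and none called. Its smallest p-values belonged to pfdn2 (-0.68, adjusted p 0.43) and pfdn4 (0.47, adjusted p 0.468), and MPNST 1 lay lowest for the list as well, at a mean of 7.91 against 8.25 to 8.53 in SRBCT and 8.42 and 8.43 on the other MPNST arrays.

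**Figure D3:**
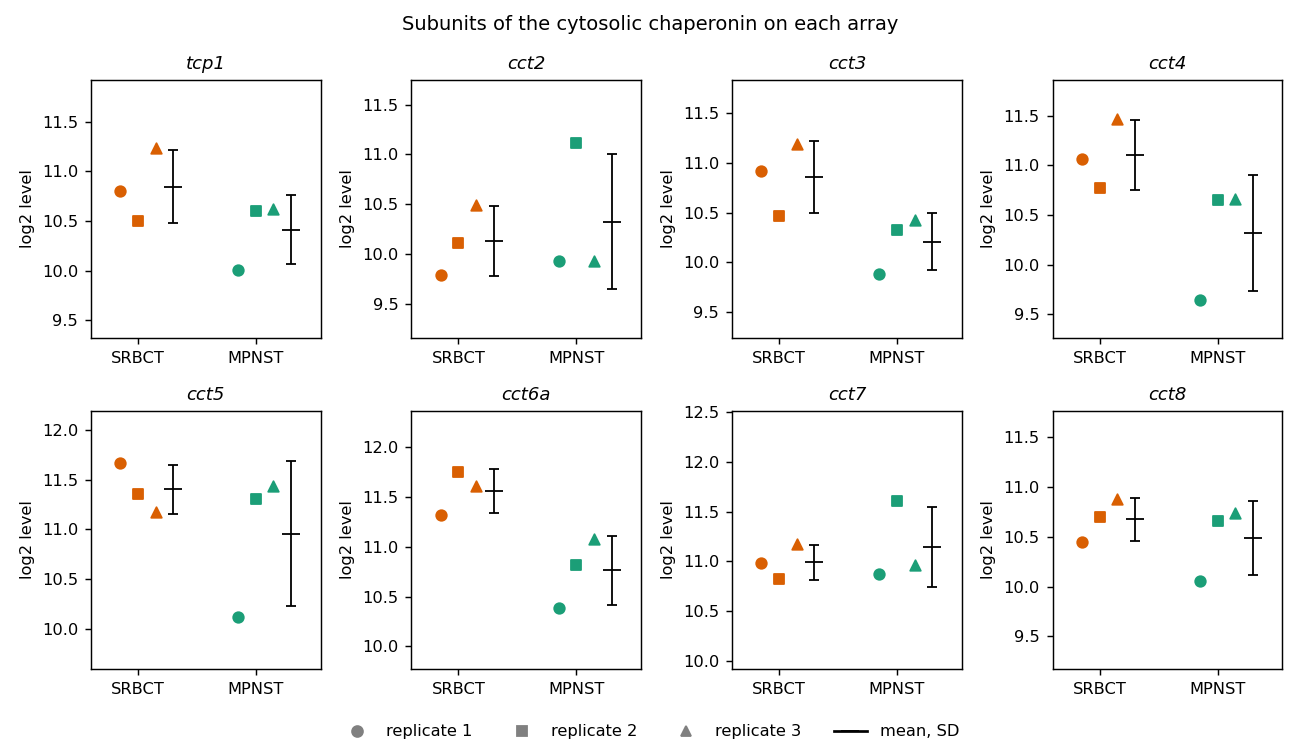
Log2 level (vertical axis, each panel spanning the same number of units) of the 8 CCT subunit genes in SRBCT (left, orange) and MPNST (right, green); symbols are replicates 1 to 3 and the bars are the mean and SD of 3 arrays. MPNST 1 is the lowest array for 6 subunits. cct3, cct4 and cct6a have all SRBCT arrays above all MPNST arrays, as do 13.2% of all probe sets.

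The mitochondrial chaperonin genes hspd1 (HSP60) and hspe1 (HSP10), which lie next to each other in the genome and encode the barrel and its lid, had overlapping groups. hspd1 was at 10.38, 10.47 and 10.36 in SRBCT and at 10, 10.95 and 10.64 in MPNST (difference -0.13, 95% interval -0.80 to 0.55, adjusted p 0.839). hspe1 was at 10.64, 10.82 and 11.14 in SRBCT and at 10.60, 11.63 and 11.42 in MPNST (-0.35, adjusted p 0.613). In both genes MPNST 1 was lowest and MPNST 2 highest. hspa9, the mitochondrial HSP70, differed by -0.44 (adjusted p 0.724) with overlap. Over 8 genes grouped as mitochondrial after the values were seen the median was -0.16, or -0.33 without MPNST 1 and -0.09 without MPNST 3. Mitochondrial chaperones and proteases outside the rule (11 of 17 measured) had a median of 0.03 and none called, with clpxa at -0.70 (adjusted p 0.275) and grpel1, the exchange factor of hspa9, at -0.89 (adjusted p 0.302).

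Of 10 chaperone genes of the endoplasmic reticulum (ER), grouped after the values were seen, 9 were below 0, none passing, with a median of -0.46, or -0.21 without SRBCT 1. hspa5, the ER form of HSP70 also known as BiP, was at 9.71, 10.13 and 11.00 in SRBCT and 10.47, 10.84 and 10.68 in MPNST (-0.38, adjusted p 0.617). hsp90b1, the ER form of HSP90, was at 7.62, 9.11 and 9.71 in SRBCT and 9.97, 9.85 and 9.07 in MPNST (-0.82, adjusted p 0.52). SRBCT 1 was lowest and SRBCT 3 highest within SRBCT for both, and the groups overlapped. Without SRBCT 1 the difference was -0.098 for hspa5 and -0.22 for hsp90b1. Among the ER J-domain genes, dnajb12a differed by -0.83, dnajc3a by -0.80, dnajc10 by -0.54, dnajc18 by -0.34, dnajc3b by -0.25 and dnajb11 by -0.20, whereas dnajc1 was above 0 at 0.34. The sign of dnajc10 turned without MPNST 2 (0.082). The other ER chaperone and unfolded protein response genes, 28 measured of a list of 41, had a median of -0.33 with 23 below 0, against 0.07 over all genes, and none was called. ero1b, an oxidase that helps form disulfide bonds, had the smallest p (-0.76, adjusted p 0.227), and its paralog ero1a differed by 2.13 (adjusted p 0.254).

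serpinh1b, the ER chaperone of procollagen known as HSP47, had the lowest difference of all members. It was at 3.71, 5.68 and 6.77 in SRBCT, against 6.44, 8.72 and 8.32 in MPNST. SRBCT 3 lay above MPNST 1, so the groups overlapped. The difference was -2.44 (SE 0.93, 5.43-fold lower in SRBCT, adjusted p 0.304). Collagen genes, its clients, were looked up after these values were seen. Of 8 measured, 5 were above 0 and the median was 0.08, with col1a1a at 0.07 and col1a2 at -0.01. Their mean level was 5.9, 6.6 and 7.3 on SRBCT 1, 2 and 3. On MPNST 1, 2 and 3 it was 6.3, 6.4 and 6.4. The SRBCT order of this mean is that of serpinh1b, but among the collagen genes only col5a2a, col6a3 and col12a1b share it. The others do not, such as col1a1a, at 6.8, 8.88 and 7.95 on SRBCT 1, 2 and 3. A link with serpinh1b was not tested. hspbp1, which encodes an exchange factor of HSP70, differed by -0.78 (adjusted p 0.418).

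For the transcription factors of the response no difference beyond their spread was detected. hsf1, the master regulator, was at 7.57, 7.41 and 5.28 in SRBCT and at 6.55, 7.39 and 7.43 in MPNST (-0.37, adjusted p 0.798). SRBCT 3 was the lowest of the 6 arrays, and without it the difference was 0.37. The second hsf1 probe set differed by 0.13. hsf2 was at 7.35, 7.09 and 7.87 in SRBCT and at 7.80, 8.86 and 7.59 in MPNST (-0.65, adjusted p 0.477). Activity of hsf1 is set mostly after translation, so these mRNA levels do not measure it.

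Across classes, several genes known to be induced by heat were high on MPNST 3 and low on SRBCT 1. For 7 such genes, picked after the values were seen (hsp70.3, hsp90aa1.2, hspb1, hspb8, dnajb1a, dnajb1b and serpinh1b), MPNST 3 was the highest array for 5 and SRBCT 1 the lowest for 6. Over all genes MPNST 3 was highest for 11.0% and SRBCT 1 lowest for 16.5%, and over the 62 chaperone genes for 19.4% and 24.2%. Because the 7 genes were picked on these same values, their counts cannot be read as an excess over those shares. The exceptions were dnajb1a, highest on SRBCT 2, serpinh1b, highest on MPNST 2, and hspb8, lowest on MPNST 2. Their median distance from the 6-array mean of each gene was -1.28, -0.24 and -0.22 on SRBCT 1, 2 and 3, against -0.17, 0.51 and 1.71 on MPNST 1, 2 and 3. All 7 differences were below 0, with a median of -0.94. The choice of genes on these values bears on this shared sign too, and on the medians that follow. Without MPNST 3 the median was -0.55 and 2 of the 7 were above 0, without SRBCT 1 it was -0.54, and without MPNST 1 it was -1.65. The grouping is not the whole response to heat, and other genes that respond to heat or have close relatives that do are outside it. These include ahsa1a (1.58), the only called member, and dnaja1 (-0.11). Also outside are hspd1 (-0.13), hspe1 (-0.35), hsp90aa1.1 (0.12), hspa4a (0.28), hspa4b (0.57) and hspa4l (1.27). The spread was wide within each tumour type: hsp70.3 spanned 3.36 log2 units and hspb1 2.69 over the MPNST arrays, and serpinh1b 3.06 over the SRBCT arrays.

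**Figure D4:**
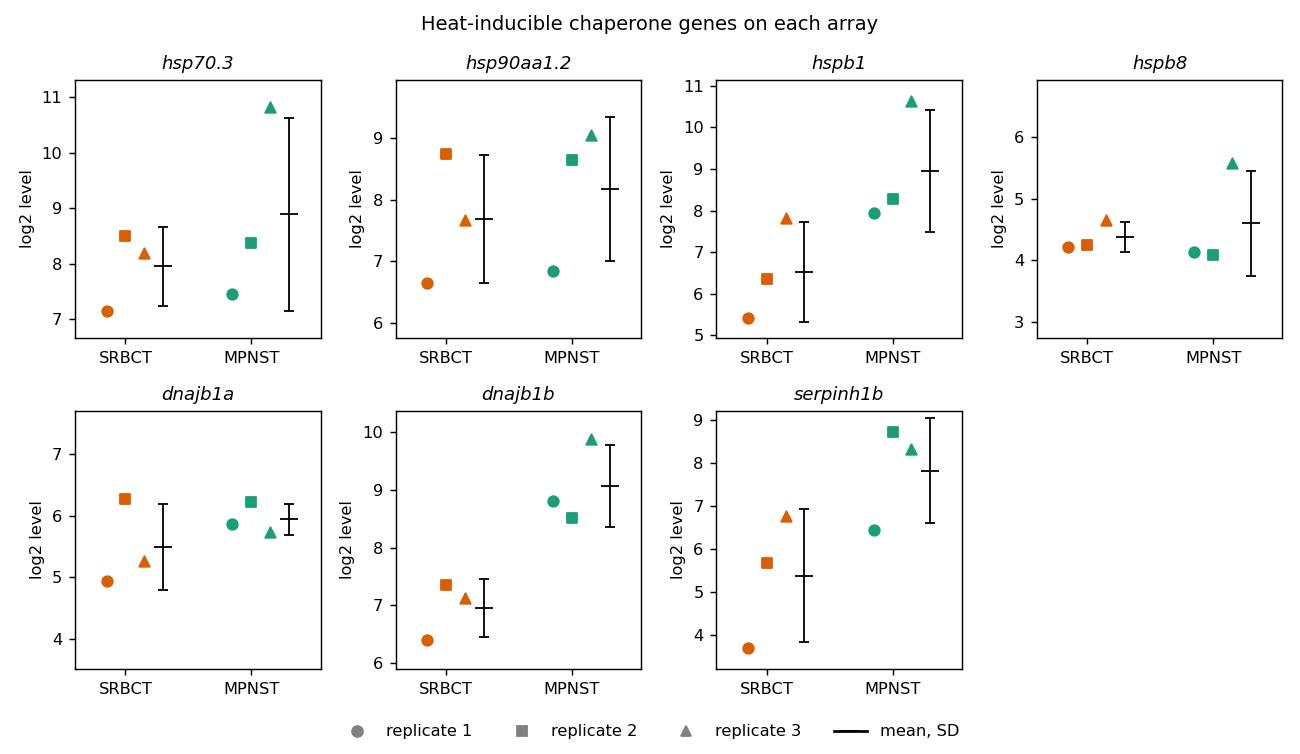
Log2 level (vertical axis) of 7 heat-inducible chaperone genes, picked after the values were seen, in SRBCT (left, orange) and MPNST (right, green). Symbols are replicates 1 to 3 and the bars are the mean and SD of 3 arrays. MPNST 3 (triangle) is the highest array for 5 genes, as it is for 11% of all genes. Only hspb1 and dnajb1b have all SRBCT arrays below all MPNST arrays, as do 9.34% of all probe sets. Because the genes were picked on these values, their counts cannot be read as an excess over those shares.

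Other stress-induced genes outside the rule (21 of 31 measured) had a median of 0.28, with 11 above 0, 10 below and none called. The AP-1 gene junbb had the smallest p (2.56, adjusted p 0.0712). sqstm1, the autophagy receptor p62, followed, at 7.18, 7.33 and 7.91 in SRBCT and 8.61, 8.81 and 10.24 in MPNST (-1.75, adjusted p 0.206). For sqstm1 every SRBCT array was below every MPNST array, as for 9.34% of all probe sets, and MPNST 3 was highest. cryaba, which encodes a small heat shock protein but lies outside the symbol rule, went the other way. It was at 4.44, 5.03 and 4.12 in SRBCT and 3.70, 4.0 and 3.68 in MPNST (0.74, adjusted p 0.304). Every SRBCT array was above every MPNST array.

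Members also differed in how much replicate tumours varied. The median within-group SD over 62 genes was 0.52 log2 units, 0.34 for CCT subunits, 0.43 for J-domain proteins and 0.78 for HSP70 and HSP110. The largest were 1.39 for serpinh1b, 1.34 for hspb1 and 1.33 for hsp70.3. SRBCT 2 was the highest array for 17 of the 62 genes (27.4%, against 22.0% of all genes) and MPNST 2 for 16 (25.8%, against 11.2%). MPNST 1 was the lowest for 21 (33.9%, against 24.7%). Among 8 genes with a second probe set, 6 had differences of the same sign in both, and the exceptions were cct2 and hsf1.

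**Figure D5:**
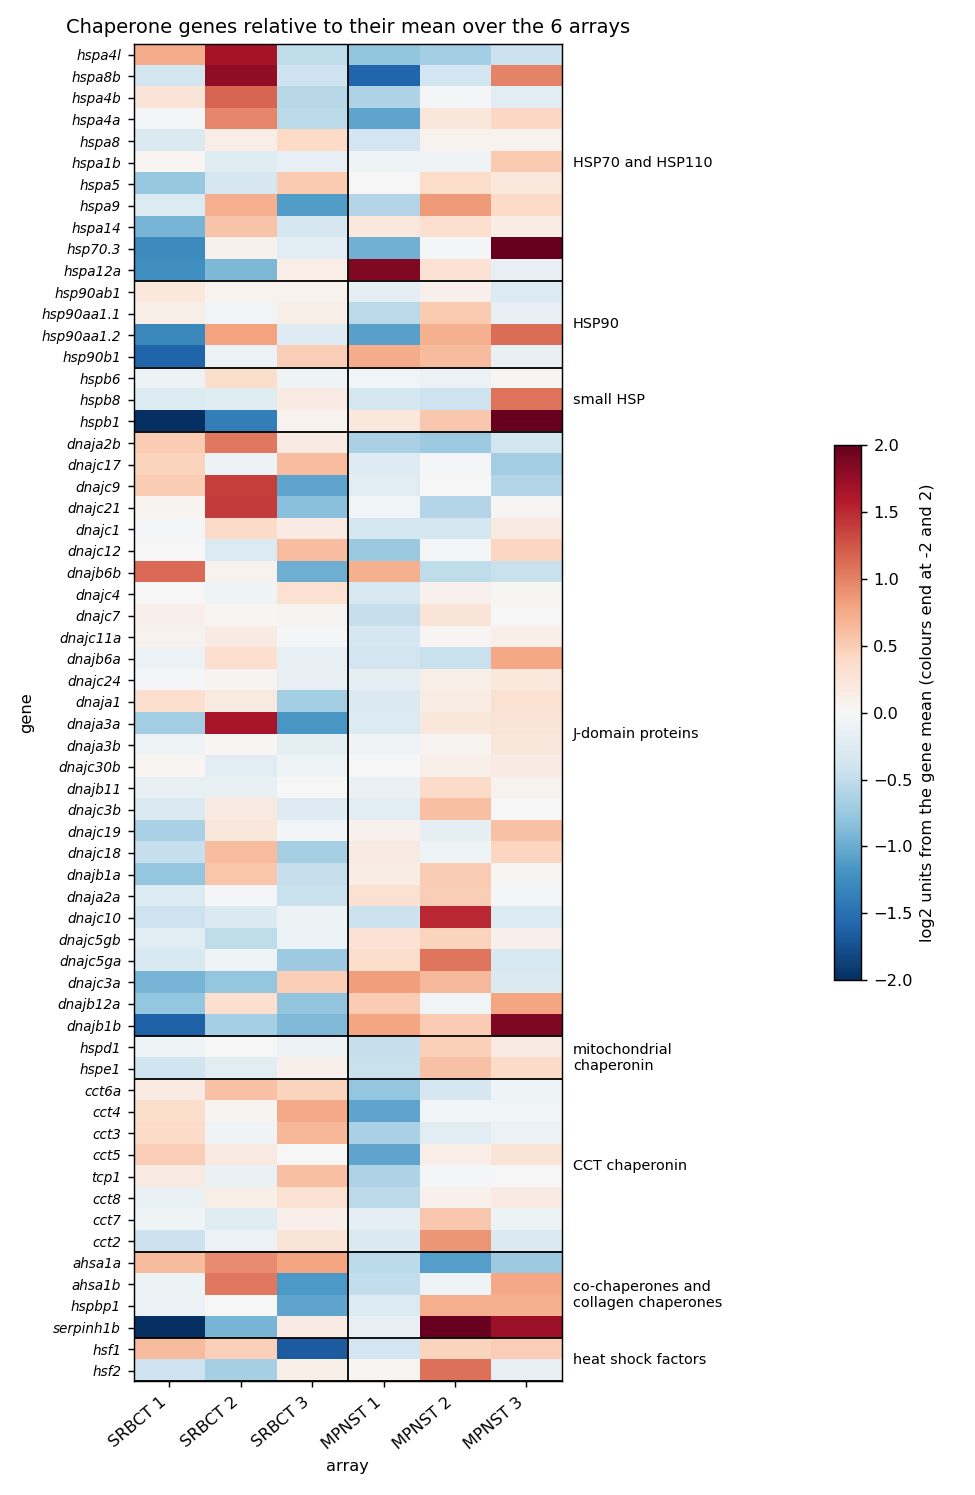
Log2 distance of each of the 62 chaperone genes (rows, by class and ordered by difference) from its own mean over the 6 arrays (columns, SRBCT left and MPNST right); colours end at -2 and 2. Red fills MPNST 3 for hsp70.3, hspb1 and dnajb1b, blue fills MPNST 1 for most CCT subunits, and ahsa1a is red on all SRBCT arrays and blue on all MPNST arrays.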

How the data were processed

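The deposited values are log2 expression values, 1 per probe set and array, made by the authors. The submitters' processing notes name RMA, affy and R 2.2.0. That method corrects background, equalizes the distributions of the arrays and combines the probes of a set. Base 2 is inferred from RMA and the range, since no header names it. Per the labels, 2.5 micrograms of total RNA were amplified from an oligo(dT) primer. Of 15617 probe sets, 115 controls were left out. Symbols came from the platform annotation of 2016, updated through Entrez gene IDs, and the brightest probe set stood for a gene. No genome or sequence was used. The groups were fitted in R 4.3.3 with limma 3.58.1 over all 6 arrays, with Benjamini-Hochberg adjustment over 15502 probe sets and a threshold of 0.05; the fit was tested on simulated data. Precision is limited by 3 arrays a group. The limma p-values weigh each difference against the spread between these tumours, with variances moderated over all probe sets.

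The members, classes and lists were chosen with earlier results of these data known. Named were called members, the up to 3 smallest p-values of each class and genes fixed for their role. Others were named after their values were seen, and the collagen, heat-inducible, ER and mitochondrial groupings were made then too. Arrays with the same replicate number come from fish of different genotypes. The titles call the replicates biological and do not identify the fish. Deviations of same-numbered arrays correlated at 0.06, 0.07 and -0.05, and those of differently numbered arrays at -0.12 to 0.08, so no pairing by number was seen. With 3 arrays a group this comparison cannot settle whether same-numbered samples shared a batch. Alternatives covered scaling, dim and suffixed probe sets, moderation, a minimum log2 difference of 1, averaged probe sets per gene, the replicate block, each array left out and a spike-in covariate. Leukocyte, neuron and lens markers had medians of -1.06, 1.06 and 0.46, none called.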

Additional observations from a re-analysis of the deposited data

How the results depend on the processing

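No chaperone probe set was called lower in any alternative. The 1 chaperone probe set called higher, ahsa1a, kept its call with median centring and with a minimum log2 difference of 1. The count was 0 with a second quantile normalization (ahsa1a adjusted p 0.0565), cyclic loess (0.0781), no moderation (0.176), without suffixed probe sets (0.0533), with the replicate block (0.166) and with a spike-in covariate that was added after seeing the data (0.154). It was also 0 without dim probe sets, a setting that removes ahsa1a itself. Leaving out each array gave 0 to 3. Over the whole array the 140 calls became 0 with no moderation, 88 with the replicate block, 83 without suffixed probe sets and 19 with the spike-in covariate, and 26 to 1140 without an array (26 without SRBCT 1, 38 without MPNST 2, 57 without MPNST 3 and 1140 without SRBCT 3). The causes were not tested. The median of the chaperone genes ranged from -0.30 to -0.02 without an array and from -0.21 to -0.02 otherwise. The small HSP median was -2.42 without dim probe sets, which leaves hspb1 alone, and the CCT median was 0.13 to 0.61 without an array. The medians of HSP70 and HSP110 (-0.35 to 0.03), HSP90 (-0.40 to 0.058) and small HSP (-0.49 to 0.14) changed sign without an array, and with the spike-in covariate the first was 0.19 and that of HSP90 0.012. When 1 array was left out the sign turned for 25 of the 62 genes, 12 of them among the 34 followed through the alternatives, and none of the 25 passed in such a fit. The differences of these 12 ranged from -0.70 to 0.40 for ahsa1b, -0.39 to 0.20 for cct2, -0.29 to 0.075 for cct7, -0.023 to 0.32 for cct8 and -0.78 to 0.37 for hsf1. They ranged from -1.65 to 0.03 for hsp70.3, -0.12 to 0.41 for hsp90aa1.1, -1.16 to 0.025 for hsp90aa1.2, -0.91 to 0.013 for hspa9, -0.04 to 0.19 for hspb6, -0.49 to 0.26 for hspb8 and -0.39 to 0.083 for hspd1. Signs also turned for hspb6 with cyclic loess (-0.013), and with the spike-in covariate for ahsa1b (0.52), hsp90aa1.1 (-0.10) and hsp90aa1.2 (0.27). Of 533 values of 34 genes, 503 kept their sign and their side of the threshold. Some alternatives cannot change a sign, such as no moderation, the minimum log2 difference and the replicate block. Of the 34 genes only ahsa1a was called to begin with. The agreement was thus largely set in advance and does not measure robustness. Dim values limit ahsa1a, hspa4l and hspb6, and among others also hsp90aa1.1, hspa1b, hspb8 on all arrays but MPNST 3, and cryaba outside the rule.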
